A study of Mus musculus with 78 samples.

Results

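Activated microglia genes were followed in bulk RNA sequencing of the hippocampus and the hypothalamus of C57BL/6 mice. The set comprised 10 genes taken by symbol (Trem2, Tyrobp, Clec7a, Cd14, Itgax, Axl, Cst7, Lyz2, Cd68 and Gpnmb), out of 20673 genes in the deposited table, and each symbol matched 1 row. By their labels the mice were 8 weeks or 18 months old. Control mice (CON) lived on 12 h of light and 12 h of darkness. Mice under circadian rhythm disruption (CRD) had the light phase inverted every 3 days during 4 weeks, were then kept for 3 weeks on blocks of 48 h light and 48 h dark, and ended with 1 week in continuous light. As that protocol itself lasted for weeks, the label of 8 weeks cannot be read as the age of a CRD mouse at collection. Each region had 5 libraries of 8-week CON, 5 of 8-week CRD, 4 of 18-month CON and 5 of 18-month CRD mice, 38 brain libraries in all. No group carried a transgene or a further treatment by its labels, and the hour of collection was not given.

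Microglia are the resident macrophages of the brain. In the healthy adult they keep a surveying, homeostatic profile with genes such as P2ry12, Tmem119 and Cx3cr1. In aged mice, and around amyloid or damaged myelin in mouse models, a fraction of them takes up a disease-associated profile rich in phagocytic receptors, lysosomal proteins and lipid handling, whose full form in mouse depends on the receptor TREM2. The 10 genes cover that profile from the surface to the lysosome. TREM2 binds lipids and lipoproteins and signals through the adaptor TYROBP. CLEC7A (dectin-1), CD14, ITGAX (CD11c) and AXL are further surface receptors. Cystatin F (Cst7), lysozyme (Lyz2), CD68 and GPNMB act in or on lysosomes and phagosomes.

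The label of age coincided with sex in these brain libraries. Ddx3y, a gene of the Y chromosome, stood between 9.20 and 24.66 FPKM in all 8-week libraries and between 0 and 0.06 in all 18-month libraries, and Eif2s3y, Kdm5d and Uty were split in the same way. Age and sex therefore cannot be told apart in any comparison of 18 months with 8 weeks that follows. The region labels fitted their markers: 7 genes of hippocampal neurons summed to 281.9 to 350.9 FPKM in hippocampal and 43.6 to 53.7 in hypothalamic libraries. In 4 hippocampal libraries (8-week CRD replicates 2 and 4, 18-month CRD replicates 1 and 4) Ttr, the transthyretin gene of the choroid plexus, lay between 35.48 and 86.43 FPKM, while the other 15 hippocampal libraries held at least 3000.13. One library, hippocampal 8-week CRD replicate 2, stood apart in the genes studied here, with Tyrobp at 120.2 FPKM and Trem2 at 37.38. Values were FPKM, a fragment count scaled by transcript length and library size, so the read depth of a library is unknown, and 17344 to 17753 genes were above 0 per brain library. The labels do not say that replicates are separate animals, or that both regions came from the same ones, and the p-values therefore refer to the variation among libraries only.

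The upstream sequence of the genes is shown because 4 of them (Clec7a, Cst7, Lyz2 and Itgax) shared the steepest rise with age described below, whereas Axl gave no call. For 8 of the 10 genes RefSeq held a promoter window on GRCm38.p6, and the 250 bases before the start of transcription were searched on both strands for GGAAGT (its reverse complement is ACTTCC), a core bound by ETS factors including the myeloid factor PU.1, and for TGANTCA, the AP-1 motif. The motifs shared no base in these windows. Capitals mark the matches, and each sequence reads 5′ to 3′ on the strand of its gene.
Clec7a, chr6:129472780-129473029, minus strand: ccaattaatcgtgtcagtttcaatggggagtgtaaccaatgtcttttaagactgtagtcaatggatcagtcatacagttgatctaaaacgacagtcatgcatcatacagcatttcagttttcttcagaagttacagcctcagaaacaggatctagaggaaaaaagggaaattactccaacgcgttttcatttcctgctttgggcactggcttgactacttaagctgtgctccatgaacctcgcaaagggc
Cst7, chr2:150570165-150570414, plus strand: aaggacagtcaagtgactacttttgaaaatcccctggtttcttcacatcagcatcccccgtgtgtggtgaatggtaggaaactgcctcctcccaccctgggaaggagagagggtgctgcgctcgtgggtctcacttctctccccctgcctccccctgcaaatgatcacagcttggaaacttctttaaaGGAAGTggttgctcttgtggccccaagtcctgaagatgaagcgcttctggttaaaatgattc
Lyz2, chr10:117282273-117282522, minus strand: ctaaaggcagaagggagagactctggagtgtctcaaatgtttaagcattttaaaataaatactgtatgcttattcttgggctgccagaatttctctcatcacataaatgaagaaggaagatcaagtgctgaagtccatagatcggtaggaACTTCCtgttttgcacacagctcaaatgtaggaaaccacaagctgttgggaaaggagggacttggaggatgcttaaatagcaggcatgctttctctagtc
Itgax, chr7:128129300-128129549, plus strand: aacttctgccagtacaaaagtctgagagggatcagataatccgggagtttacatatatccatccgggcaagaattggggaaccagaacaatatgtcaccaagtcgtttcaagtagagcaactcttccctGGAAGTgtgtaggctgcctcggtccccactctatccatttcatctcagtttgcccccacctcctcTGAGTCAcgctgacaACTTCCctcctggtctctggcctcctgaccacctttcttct
Axl, chr7:25788734-25788983, minus strand: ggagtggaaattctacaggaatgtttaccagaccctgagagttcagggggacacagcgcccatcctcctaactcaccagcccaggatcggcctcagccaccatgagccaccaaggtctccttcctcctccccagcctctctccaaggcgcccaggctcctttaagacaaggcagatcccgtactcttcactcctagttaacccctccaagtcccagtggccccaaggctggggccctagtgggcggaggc
The letters GGAAGT were found upstream of Cst7, Lyz2 and Itgax, 3 of the 8 genes with a window, against 19.74% of all 32851 RefSeq promoter windows of the same length. Itgax held them on both strands. The AP-1 letters were found upstream of Cd68, Itgax and Trem2, again 3 of 8, against 6.749% of all windows. The windows of Clec7a, Gpnmb and Axl held neither. A match is a description of these letters, and whether a factor binds there was not measured.

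Levels per kilobase spread widely among the genes, and their order changed between the ages. In the hippocampus of 8-week CON mice the adaptor gene Tyrobp was highest at 49.4 ± 0.819 FPKM (SD, n = 5). Axl (20.2 ± 1.65), Trem2 (16.8 ± 1.57), Lyz2 (14.9 ± 3.56) and Cd68 (10.3 ± 0.977) formed a middle tier, in which the libraries of each gene overlapped those of its neighbour. Cd14 (1.91 ± 0.341) and Gpnmb (1.53 ± 0.231) overlapped as well. Clec7a (0.542 ± 0.197) and Cst7 (0.434 ± 0.120) followed and also overlapped, and Itgax came last at 0.114 ± 0.0598 FPKM. At 18 months in CON, Tyrobp still led at 77.3 ± 9.21 FPKM (n = 4), but Lyz2 had moved to the second place at 52.7 ± 9.02. Trem2 (27.4 ± 3.57), Axl (21.5 ± 2.05) and Cd68 (20.3 ± 1.89) came next, each overlapping its neighbour in this order. Gpnmb (3.88 ± 0.970), Cd14 (3.67 ± 0.656), Cst7 (3.56 ± 1.14) and Clec7a (3.41 ± 0.916) lay within each other's spread, and Itgax remained lowest at 0.833 ± 0.292 FPKM.

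**Figure D1:**
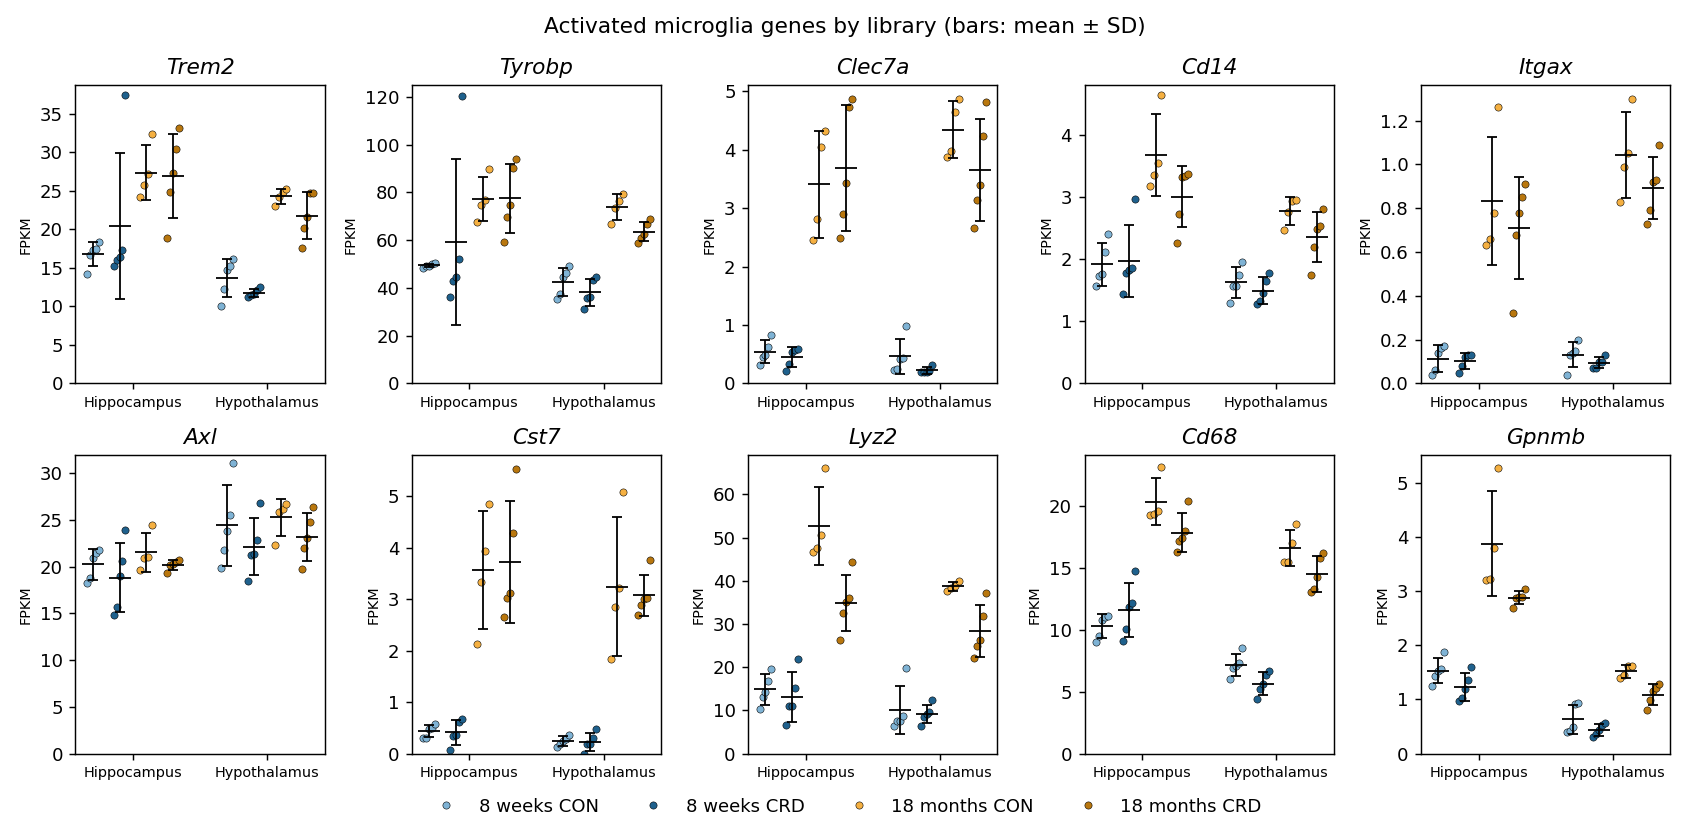
FPKM of each of the 10 genes (1 panel per gene, linear axis from 0) in every hippocampal and hypothalamic library. Points are libraries coloured by age and schedule, and bars are the mean ± SD. The 18-month libraries lie above the 8-week libraries for 9 genes in CON of both regions, Axl shows no such separation, and hippocampal 8-week CRD replicate 2 stands out at 120.2 FPKM for Tyrobp.

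The comparison of 18 months with 8 weeks asks how these genes differ between old and young brains. Under the regular light cycle, 9 of the 10 genes had every 18-month library above every 8-week library, and this held in both regions. Of all genes tested, 5.32% in the hippocampus and 4.78% in the hypothalamus did so. The exception was Axl in both regions. Changes were tested on log2(FPKM + 1) with limma, leaving out genes that averaged under 0.5 FPKM over the region's libraries. A gene was called where its p, adjusted by Benjamini and Hochberg's method over all genes tested in that region, was under 0.05. In the hippocampus 6 of 9 tested members were called higher, where 0.468% of all 14313 genes were called, 0.384% higher and 0.0838% lower. In the hypothalamus 9 of 10 were called higher, where 9.95% of 14437 genes were called, 3.73% higher and 6.21% lower. The median log2 change of the tested members was 0.92 in hippocampal and 0.82 in hypothalamic libraries, and that of all genes was -0.02 and -0.04. Clec7a and Cst7 in both regions, and Itgax in the hypothalamus, passed the filter only through their 18-month libraries, so the counts describe the tested genes and lend no support of their own. Without any filter, 7 of 10 members were called in the hippocampus, where 0.424% of 19583 genes were called, and 9 of 10 in the hypothalamus, where 4.68% of 19762 were. In whole tissue, more microglia and more RNA per microglial cell cannot be told apart.

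Among the receptors, Clec7a, the dectin-1 receptor of fungal beta-glucans, had one of the steepest rises. In the hippocampus of CON mice its 5 libraries at 8 weeks read 0.49, 0.63, 0.31, 0.45 and 0.83 FPKM, and its 4 libraries at 18 months read 4.05, 2.45, 4.32 and 2.81. In the hypothalamus the 8-week libraries read 0.98, 0.23, 0.25, 0.41 and 0.44 FPKM and the 18-month libraries 3.97, 4.87, 4.64 and 3.88. The highest 8-week library, at 0.98 FPKM, lay far under the lowest 18-month library, at 2.45. The ratio of the means was 6.29 in the hippocampus and 9.39 in the hypothalamus. On the log2(FPKM + 1) scale, which understates changes of weakly expressed genes, Clec7a rose by 1.5 ± 0.16 (SE, adjusted p = 2.924e-05) and 1.89 ± 0.13 (adjusted p = 3.689e-08). GENCODE lists mouse Clec7a (chromosome 6, 129461591 to 129472779, GRCm38, minus strand) as a polymorphic pseudogene.

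Itgax, the integrin alpha chain CD11c that pairs with Itgb2, was the weakest of the 10. Its hippocampal values in CON were 0.14, 0.04, 0.16, 0.06 and 0.17 FPKM at 8 weeks and 0.78, 0.66, 1.26 and 0.63 at 18 months. In the hypothalamus they were 0.14, 0.04, 0.13, 0.15 and 0.20 FPKM at 8 weeks and 0.83, 0.99, 1.30 and 1.05 at 18 months. The lowest 18-month library thus lay at 0.63 FPKM, above the highest 8-week library at 0.20. In the hypothalamus Itgax rose by 0.85 ± 0.08 (adjusted p = 1.59e-06), a ratio of means of 7.89. In the hippocampus it fell under the filter. The fit without a filter gave 0.71 ± 0.10 there (adjusted p = 0.001185), with a ratio of means of 7.30.

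Trem2 and its adaptor Tyrobp moved less and were not called in the hippocampus, where the variance shared over the 4 groups includes the library that stands apart. Hippocampal Trem2 in CON read 16.71, 14.23, 18.42, 17.44 and 17.28 FPKM at 8 weeks and 32.38, 24.14, 25.74 and 27.21 at 18 months. The groups did not overlap. The log2 change was 0.67 ± 0.20 for Trem2 (adjusted p = 0.1174) and 0.63 ± 0.23 for Tyrobp (adjusted p = 0.1804). Without hippocampal 8-week CRD replicate 2, which belongs to neither group, the estimates were identical and their errors smaller, and both genes were called (adjusted p = 0.009317 for Trem2 and 0.01169 for Tyrobp), as were 1.98% of all genes, against 0.468% with that library. In the hypothalamus Trem2 stood at 13.7 ± 2.47 FPKM (n = 5) at 8 weeks and 24.3 ± 0.961 (n = 4) at 18 months and rose by 0.80 ± 0.11 (adjusted p = 0.0002528). Tyrobp went from 42.7 ± 5.86 to 74.0 ± 5.45 FPKM there and rose by 0.79 ± 0.10 (adjusted p = 0.000145).

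Cd14, the co-receptor that hands bacterial lipopolysaccharide to TLR4, rose in both regions of CON mice. Its hippocampal level went from 1.91 ± 0.341 FPKM to 3.67 ± 0.656, a log2 change of 0.68 ± 0.13 (adjusted p = 0.02271), and its hypothalamic level from 1.62 ± 0.247 to 2.77 ± 0.227, a change of 0.53 ± 0.10 (adjusted p = 0.004846). The hippocampal call was the least firm of the 6. It was lost without 18-month CON replicate 1 (0.59 ± 0.14, adjusted p = 0.1181), and also without replicate 2 or 4 of that group or replicate 1, 2 or 3 of 8-week CON (adjusted p from 0.05345 to 0.07008).

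Axl, a receptor tyrosine kinase that recognises dying cells through its ligand GAS6, was not called in any of the 4 age comparisons. In the hippocampus of CON mice it read 18.76, 18.21, 21.80, 20.96 and 21.49 FPKM at 8 weeks and 24.46, 20.94, 21.01 and 19.67 at 18 months. In the hypothalamus it read 21.76, 19.85, 23.79, 25.54 and 31.13 FPKM at 8 weeks and 26.75, 26.19, 22.33 and 25.85 at 18 months. The ages overlapped in both regions. The log2 change was 0.08 (95% interval -0.14 to 0.31) in the hippocampus and 0.06 (-0.18 to 0.30) in the hypothalamus, so these libraries do not exclude a modest change in either direction. Under CRD the changes were 0.12 (-0.09 to 0.33) and 0.07 (-0.16 to 0.29).

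Among the lysosomal and secreted proteins, Cst7, which encodes the cathepsin inhibitor cystatin F, had the largest ratio of means of the 10 genes in CON mice of both regions. In hypothalamic CRD mice Clec7a had a larger one, 16.3 against 13.4. In the hippocampus of CON mice Cst7 read 0.58, 0.47, 0.31, 0.50 and 0.31 FPKM at 8 weeks and 3.93, 2.12, 4.85 and 3.33 at 18 months. In the hypothalamus it read 0.37, 0.19, 0.25, 0.12 and 0.29 FPKM at 8 weeks and 3.21, 2.84, 5.07 and 1.84 at 18 months. The lowest 18-month library, at 1.84 FPKM, lay above the highest 8-week library, at 0.58. The ratios of means were 8.20 and 13.3, and the log2 changes 1.64 ± 0.18 (adjusted p = 3.53e-05) and 1.72 ± 0.15 (adjusted p = 1.438e-06).

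Lyz2, the lysozyme of macrophages and granulocytes, gained the most in absolute terms among the lysosomal and secreted genes. Its hippocampal CON libraries read 14.35, 16.89, 13.12, 10.29 and 19.59 FPKM at 8 weeks and 66.05, 47.64, 46.76 and 50.52 at 18 months. The hypothalamic ones read 19.83, 7.52, 8.81, 7.66 and 6.36 FPKM at 8 weeks and 38.40, 38.91, 40.01 and 37.56 at 18 months. All 18-month libraries lay above all 8-week libraries, by a wide margin in the hippocampus. Lyz2 rose by 1.78 ± 0.23 in the hippocampus (adjusted p = 0.0003671) and by 1.96 ± 0.23 in the hypothalamus (adjusted p = 4.083e-05). Its neighbour Lyz1 is a near-identical copy, and how reads shared by the pair were divided is not given in the sources used here, so the value of either gene alone is uncertain.

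Cd68, the macrosialin of late endosomes, and Gpnmb, a glycoprotein of lysosomes and phagosomes, both rose in the hippocampus. Cd68 read 11.01, 8.99, 10.79, 9.47 and 11.12 FPKM at 8 weeks and 23.14, 19.31, 19.24 and 19.58 at 18 months in hippocampal CON libraries, and Gpnmb read 1.25, 1.57, 1.43, 1.88 and 1.52 FPKM at 8 weeks and 5.27, 3.22, 3.21 and 3.80 at 18 months. Replicate 1 of the 18-month CON group was highest for both. The ratio of the hippocampal means was 1.98 for Cd68 and 2.53 for Gpnmb. On the log2(FPKM + 1) scale the changes were 0.92 ± 0.11 for Cd68 (adjusted p = 0.0001015) and 0.93 ± 0.11 for Gpnmb (adjusted p = 0.0001204). In the hypothalamus Cd68 rose by 1.11 ± 0.10 (adjusted p = 1.59e-06), from 7.17 ± 0.901 FPKM to 16.6 ± 1.45. Gpnmb rose there by 0.64 ± 0.11 (adjusted p = 0.002115), from 0.632 ± 0.270 FPKM to 1.52 ± 0.115.

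**Figure D2:**
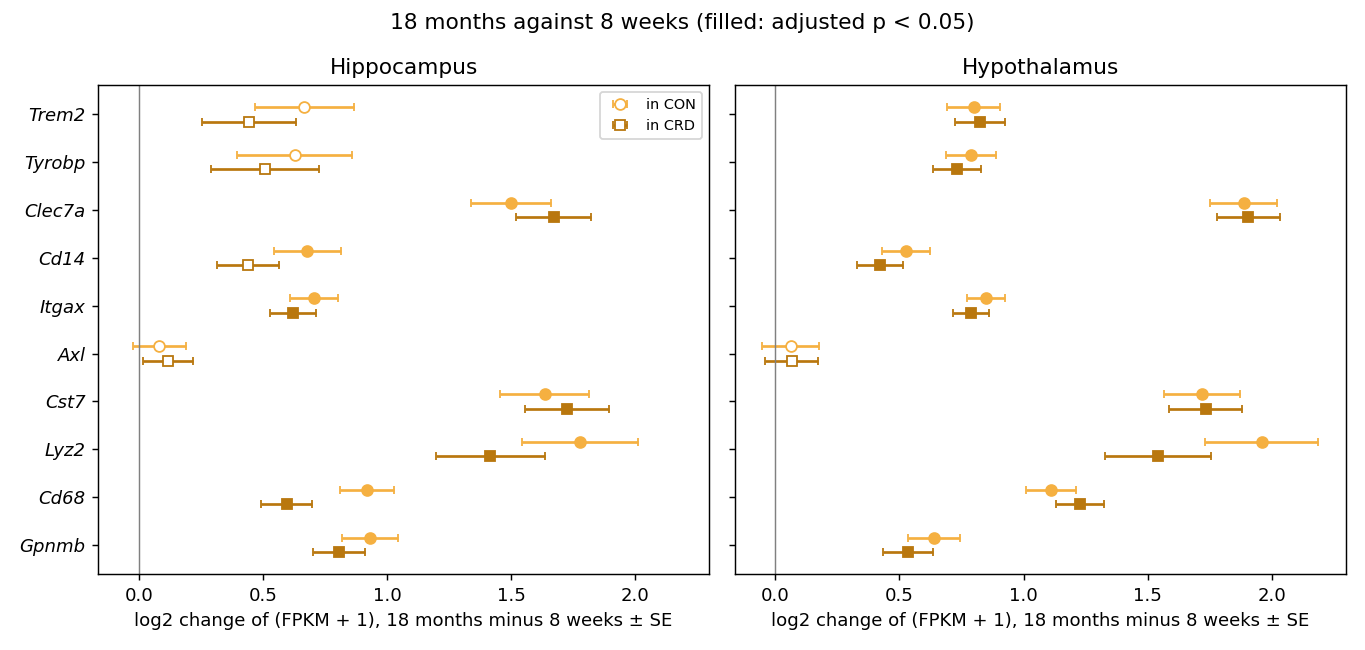
Log2 change of (FPKM + 1) from 8 weeks to 18 months for the 10 genes, with its SE, in CON (circles) and CRD (squares) of the hippocampus (left) and hypothalamus (right). Filled symbols had an adjusted p under 0.05. Hippocampal Itgax is drawn from the fit without a filter on low values. Axl lies between 0.06 and 0.12 in all 4 comparisons, and Clec7a, Cst7 and Lyz2 lie between 1.42 and 1.96.

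Mice under CRD showed the age difference too. Their libraries were not those of the CON comparison, but both comparisons drew on the variance of the same regional fit and share the split by sex. In the hypothalamus 9 of 10 members were called higher, where 12.3% of all genes were called, 4.86% higher and 7.49% lower. Clec7a rose from 0.224 ± 0.0541 FPKM (n = 5) to 3.65 ± 0.869 (n = 5) there, a log2 change of 1.91 ± 0.13 (adjusted p = 1.092e-08), and Cst7 from 0.230 ± 0.172 to 3.07 ± 0.402, with 1 of the 8-week libraries listed at 0. In the hippocampus 5 of 9 members were called higher (Clec7a, Cst7, Lyz2, Cd68 and Gpnmb), where 0.769% of all genes were called, 0.706% higher and 0.0629% lower. Their log2 changes ran from 0.60 ± 0.10 for Cd68 (adjusted p = 0.005611) to 1.72 ± 0.17 for Cst7 (adjusted p = 6.65e-06). Cd14 at 0.44 (adjusted p = 0.171), Trem2 at 0.44 (adjusted p = 0.4703) and Tyrobp at 0.51 (adjusted p = 0.4718) were not called. Without 8-week CRD replicate 2, 8 of 9 members and 0.943% of all genes were called, Trem2 at 0.67 (adjusted p = 0.006294), Tyrobp at 0.80 (adjusted p = 0.001081) and Cd14 at 0.55 (adjusted p = 0.01623) among them. Without the 4 libraries low in Ttr, 8 of 9 members were called in hippocampal CON mice, where 6.97% of all genes were called, and 6 of 9 in hippocampal CRD mice, where 0.545% were. Every 18-month CRD library lay above every 8-week CRD library for 6 of 10 genes in the hippocampus, against 1.28% of all genes, and for 8 of 10 in the hypothalamus, against 3.41%.

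CRD against CON asks whether a disrupted light cycle altered these genes at a given age. No member was called by limma in any of the 4 comparisons. In the hippocampus no gene at all was called at either age (0%), with 749 genes at an unadjusted p under 0.05 at 18 months and 2948 at 8 weeks. In the hypothalamus 0.0277% of genes were called at 18 months and 0% at 8 weeks, with 1746 and 203 genes at an unadjusted p under 0.05. Of the members, 2 in the hippocampus at 18 months (Lyz2 and Gpnmb), 0 there at 8 weeks, 2 in the hypothalamus at 18 months (Gpnmb and Tyrobp) and 1 there at 8 weeks (Cd68) had an unadjusted p under 0.05. In the hippocampus the estimate was negative for 7 of 9 tested members at 18 months, where 55.09% of all genes had a negative estimate, and for 5 of 9 at 8 weeks, where 59.62% had. That count depended on the 4 hippocampal libraries low in Ttr, all from CRD mice. Without them every tested member was negative at 18 months, from -0.07 for Axl to -0.72 for Lyz2, with none called. At 8 weeks only Cd68 was then positive, at 0.08. The share of all genes was not computed for that fit. In the hypothalamus the estimate was negative for 10 of 10 members at each age, where 40.28% of all genes had a negative estimate at 18 months and 41.57% at 8 weeks. Without 18-month CRD replicate 2, hypothalamic Cst7 was at 0.02 at 18 months and the other 9 stayed negative. Over all alternatives this Cst7 estimate ran from -0.19 to 0.18. At 8 weeks, without hypothalamic 8-week CON replicate 1, Lyz2 was at 0.22 and Cst7 at 0.01, and the other members stayed negative. The median log2 change of the members was -0.18 and -0.14 in the hypothalamus, beside 0.03 and 0.01 for all genes, and -0.08 and -0.03 in the hippocampus, beside -0.02 and -0.05. The 14 tested homeostatic microglial genes had a median of -0.21 in the hypothalamus at 18 months and -0.05 at 8 weeks, with none called.

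Lyz2 and Gpnmb separated CRD from CON at 18 months in both regions by their single libraries. As both regions may come from the same mice, agreement between them cannot be counted as independent. Hippocampal Lyz2 read 66.05, 47.64, 46.76 and 50.52 FPKM in CON and 44.38, 26.32, 36.07, 35.06 and 32.59 in CRD. In the hypothalamus it read 38.40, 38.91, 40.01 and 37.56 FPKM in CON and 31.79, 22.19, 24.86, 37.19 and 26.30 in CRD. Every CRD library was below every CON library, narrowly so in the hypothalamus, where 37.19 stood beside 37.56. The log2 change was -0.59 ± 0.23 in the hippocampus (95% interval -1.08 to -0.10, adjusted p = 0.8117) and -0.45 ± 0.23 in the hypothalamus (-0.93 to 0.02, adjusted p = 0.4327).

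Gpnmb read 5.27, 3.22, 3.21 and 3.80 FPKM in hippocampal CON and 2.87, 2.89, 2.89, 2.70 and 3.04 in hippocampal CRD at 18 months. In the hypothalamus it read 1.61, 1.39, 1.45 and 1.62 FPKM in CON and 0.99, 1.15, 0.80, 1.29 and 1.22 in CRD. The groups did not overlap in either region. The log2 change was -0.31 ± 0.11 (95% interval -0.55 to -0.08, adjusted p = 0.8117) and -0.27 ± 0.11 (-0.49 to -0.05, adjusted p = 0.3123). Of all genes, 1.03% in the hippocampus and 2.98% in the hypothalamus had every CRD library below every CON library at 18 months, and Lyz2 and Gpnmb were the 2 of 10 members that did so in each region. Other lists split the same libraries. The 19 interferon response genes summed to 105.6 to 187.3 FPKM in CON and 197.5 to 1110 in CRD in the hippocampus, and to 95.46 to 146.5 and 186.4 to 957.3 in the hypothalamus. Replicate 2 of 18-month CRD held the highest sum in each region. Without it Lyz2 was at -0.49 (adjusted p = 0.5646) in the hippocampus and -0.37 (adjusted p = 0.6086) in the hypothalamus, and Gpnmb at -0.31 and -0.28. Hippocampal 18-month CON replicate 1 was the highest CON library for both genes in that region. Leaving it out moved hippocampal Gpnmb to -0.18 and Lyz2 to -0.48 (adjusted p = 0.9995 for each by limma). Astrocyte genes summed to 1008 to 1088 FPKM in CON and 728.2 to 937.4 in CRD in the hypothalamus at 18 months, with none called. The part of these lists in the values of Lyz2 and Gpnmb was not tested. At 8 weeks no member did so in either region, against 4.43% and 0.104% of all genes.

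Clec7a, Itgax and Cst7, which had the largest age ratios, did not separate by schedule at 18 months. Hippocampal Clec7a at 18 months read 4.05, 2.45, 4.32 and 2.81 FPKM in CON and 4.87, 2.48, 3.43, 4.73 and 2.90 in CRD, overlapping fully, with a log2 change of 0.08 (95% interval -0.26 to 0.42). Hypothalamic Clec7a overlapped too, with a change of -0.22 (-0.50 to 0.07). Itgax was at -0.11 (-0.27 to 0.05) in the hypothalamus and, in the fit without a filter, at -0.10 (-0.31 to 0.10) in the hippocampus. Cst7 was at 0.05 (-0.32 to 0.43) in the hippocampus and at -0.01 (-0.33 to 0.31) in the hypothalamus at 18 months. These intervals leave room for a change in either direction. Without the 4 libraries low in Ttr the hippocampal estimates turned negative, to -0.15 for Clec7a (adjusted p = 0.8954) and -0.18 for Cst7 (adjusted p = 0.8913). Whether the schedule effect differed with age, which is the same contrast as whether the age difference differed with schedule, gave no called member in either region, with 1 member (Cd68 in the hippocampus, -0.32, interval -0.64 to -0.01) and 0 members at an unadjusted p under 0.05. Of all genes 0.021% were called in the hippocampus and 0.0485% in the hypothalamus.

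**Figure D3:**
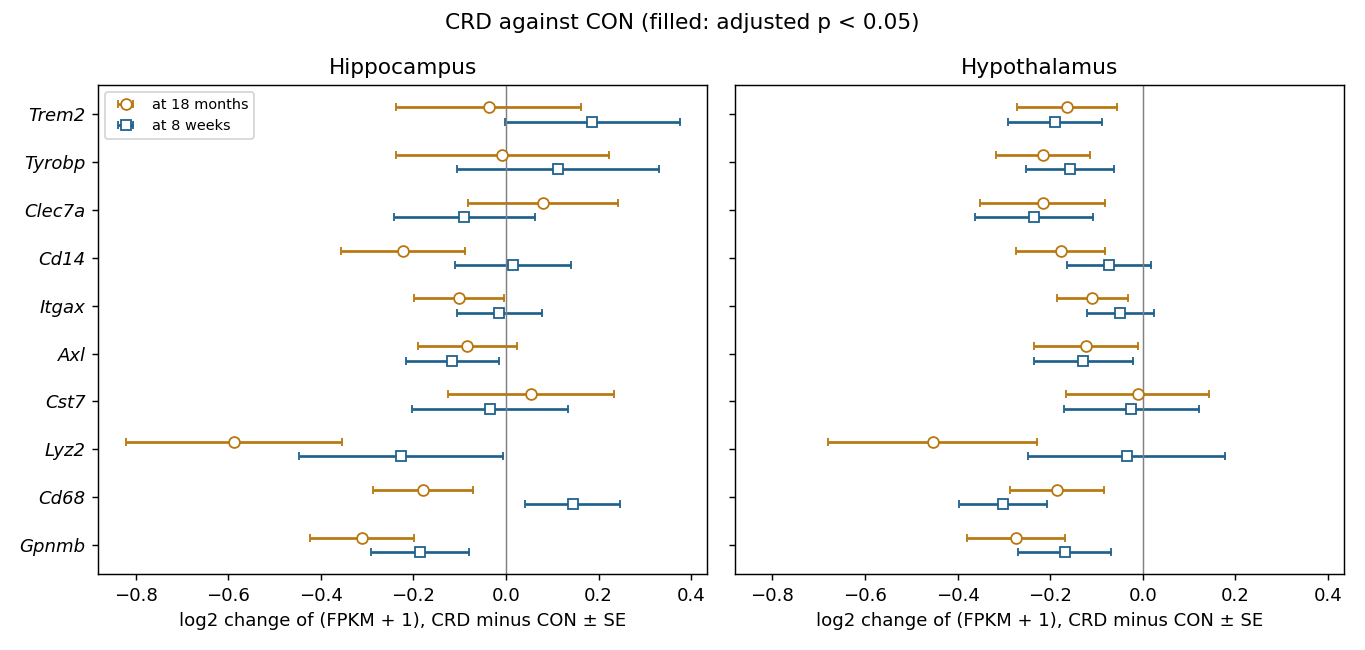
Log2 change of (FPKM + 1) from CON to CRD for the 10 genes, with its SE, at 18 months (circles) and 8 weeks (squares) in the hippocampus (left) and hypothalamus (right). Open symbols mark an adjusted p of at least 0.05, which holds for every point. Hippocampal Itgax is drawn from the fit without a filter on low values. Lyz2 at 18 months is the most negative point in each region, at -0.59 and -0.45.

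Between the regions, the hypothalamus held less Gpnmb and Cd68 than the hippocampus, whereas Clec7a and Cst7 gave no regional call. In 8-week CON mice 3 of 9 tested members were called lower in the hypothalamus, where 50.5% of 14500 genes were called, 33% higher and 17.6% lower. Gpnmb differed by -0.64 ± 0.10 (adjusted p = 2.163e-06), with 1.53 ± 0.231 FPKM in the hippocampus and 0.632 ± 0.270 in the hypothalamus. Cd68 differed by -0.47 ± 0.10 (adjusted p = 0.0001921) and Lyz2 by -0.60 ± 0.23 (adjusted p = 0.02584). The call of Lyz2 was lost with only the compared groups (adjusted p = 0.05763 by limma). It was also lost without hippocampal replicate 2 or 5, or hypothalamic replicate 2, 4 or 5, of 8-week CON (adjusted p from 0.0595 to 0.08707 by limma). In 18-month CON mice Gpnmb (-0.93 ± 0.11, adjusted p = 1.653e-08), Cd68 (-0.28 ± 0.11, adjusted p = 0.04176) and Cd14 (-0.30 ± 0.12, adjusted p = 0.04404) were called lower, where 47.6% of genes were called, 29.1% higher and 18.5% lower. No member was called higher at either age in the main fit. Axl came close at 8 weeks (0.25 ± 0.11, adjusted p = 0.05176 by limma) and was called higher under several alternatives. Among these were the fit without the 4 hippocampal libraries low in Ttr at 8 weeks (adjusted p = 0.04963 by limma) and only the compared groups at 18 months (adjusted p = 0.02771 by limma). The regions also differed in choroid plexus RNA, with Ttr at 3000.13 to 9708.88 FPKM in hippocampal and 2.17 to 28.55 in hypothalamic CON libraries. Markers of border macrophages summed to 8.74 to 22.9 FPKM in those hippocampal and 3.89 to 7.98 in those hypothalamic libraries. The part of either in the regional differences was not tested. The calls of Cd68 and Cd14 at 18 months were lost with other settings and without single libraries, among them hippocampal 18-month CON replicate 1, whereas Gpnmb stayed called in all of them. For the difference of the age effects between the regions, limma called 0 of 14500 genes (0%) and 0 of the 9 tested members, with 558 genes and 0 members at an unadjusted p under 0.05. Hypothalamus minus hippocampus, that difference was 0.39 for Clec7a (95% interval -0.05 to 0.82) and -0.29 for Gpnmb (-0.60 to 0.02), so a difference is not excluded.

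By their median change with age in CON mice, the homeostatic genes of microglia moved less than the activated ones, though single genes of the 2 sets overlapped. In hippocampal CON mice 0 of 15 homeostatic genes were called with age, with a median log2 change of 0.25. In the hypothalamus 6 of 14 tested were called higher, with a median of 0.31, among them the receptor genes Gpr34 (0.81) and Fcrls (0.78) and the secreted protein gene Olfml3 (0.55). Of the activated genes, Trem2 (0.80), Gpnmb (0.64), Cd14 (0.53) and Axl (0.06) rose no more than Gpr34 there. Under CRD 0 of 15 and 5 of 14 were called higher. Of all genes, 0.384% in hippocampal CON, 3.73% in hypothalamic CON, 0.706% in hippocampal CRD and 4.86% in hypothalamic CRD were called higher. The mean log2(FPKM + 1) of the 10 genes minus that of the 15 homeostatic genes lay between -1.20 and -0.66 in the 8-week libraries of both regions and between -0.44 and -0.01 in the 18-month libraries. The ages did not overlap on this difference in either region, and as the genes were chosen with results of these data known, it is given as a description. By schedule, the 18-month mean of this difference was -0.26 in CON and -0.25 in CRD in the hypothalamus, and -0.31 and -0.29 in the hippocampus.

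**Figure D4:**
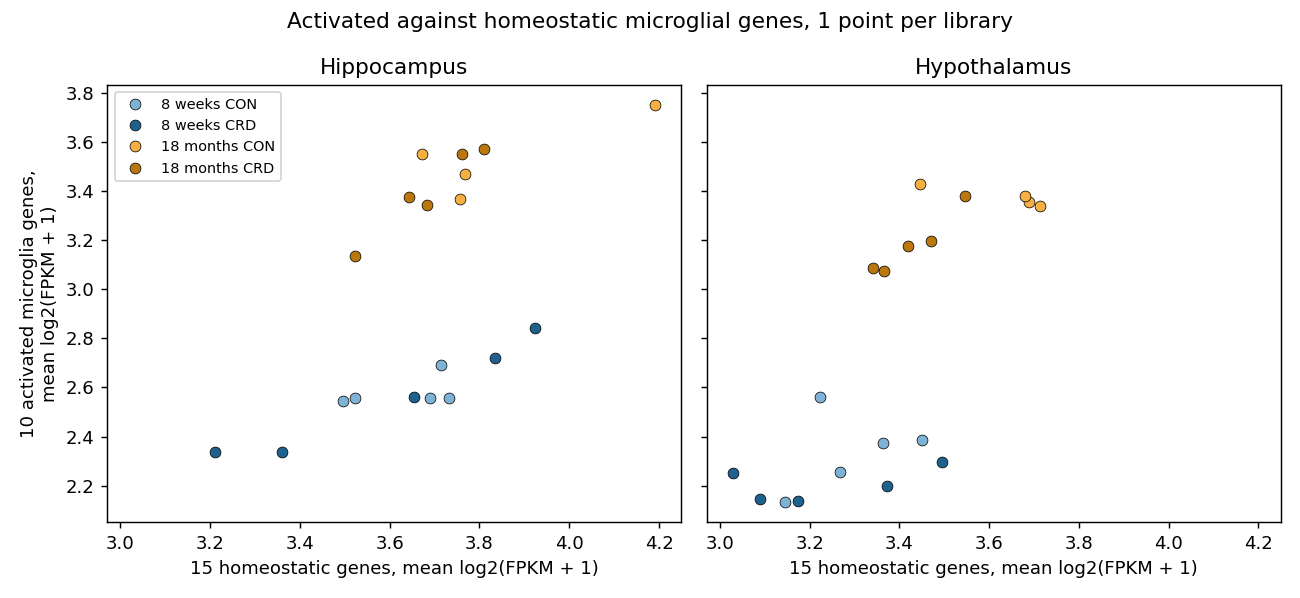
Mean log2(FPKM + 1) of the 10 activated microglia genes (vertical axis) against that of 15 homeostatic microglial genes (horizontal axis), 1 point per library, hippocampus left and hypothalamus right, axes not starting at 0. In each region the 18-month libraries lie above the 8-week libraries at a like homeostatic level, and in the hypothalamus 4 of the 5 CRD points at 18 months lie below every CON point of that age on the vertical axis. The homeostatic mean of these hypothalamic groups was also lower in CRD (3.43) than in CON (3.63).

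Other genes of the disease-associated profile and the partners of the 10 genes changed in part. Of all genes tested, 0.468% in hippocampal CON, 0.769% in hippocampal CRD, 9.95% in hypothalamic CON and 12.3% in hypothalamic CRD were called with age. Of 22 further genes of the profile, 5 rose in hippocampal CON mice with age, among them the chemokine genes Ccl3 (1.04), Ccl6 (1.01) and Ccl4 (0.90) and the cathepsin gene Ctsz (0.62). In the hypothalamus 9 of 21 tested rose in CON mice, Ccl3 at 1.56, Ccl6 at 0.96 and Ctsz at 0.71 among them, and 9 rose in CRD mice, Cd52 at 1.95 among them. Hif1a, a hypoxia-response factor named here because it was the only one to fall, changed by -0.26 in those mice. Of the partners of CD14, the receptor gene Tlr2 was called in all 4 age comparisons (0.49 to 0.64), whereas none of the other 6 tested was. Itgb2, the beta chain that pairs with ITGAX, was called in 3 of the 4 (0.58 to 0.70). Signalling genes downstream of TREM2 and TYROBP were called in the hypothalamus, 3 of 10 in CON, including the phosphatase genes Ptpn6 (0.58) and Inpp5d (0.39), and 5 of 10 in CRD, with 0 of 11 in the hippocampus. Adam17, which sheds TREM2 from the surface and is named because it was the only one to fall, changed by -0.27 in hypothalamic CRD mice. Of the CLEC7A pathway 1 of 6 genes was called, Card9 (0.34) in hypothalamic CRD mice. As 12.3% of all genes were called there, this count is no result about the pathway. Of the AXL ligands and relatives, the ligand gene Pros1 rose (0.30) and the receptor gene Tyro3 fell (-0.27) in the hypothalamus of CON mice, and none was called in the hippocampus. Lysosomal partners were called higher in 3 of 11 genes in hypothalamic CON and 6 of 11 in hypothalamic CRD, among them Ctss (0.62 and 1.01). In the hippocampus they numbered 0 of 11 in CON and 1 of 11 in CRD.

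Over the 19 libraries of each region, the genes whose pattern was most like the mean of the 10 (each scaled to unit SD) were Ctsz (Pearson r = 0.96 in the hippocampus and 0.96 in the hypothalamus), Ccl6 (0.95 and 0.96), Lyz1 (0.94 and 0.95), Itgb2 (0.95 and 0.94) and Fcgr3 (0.91 and 0.92), out of 13956 genes tested in both. As the division of reads shared by Lyz1 and the member Lyz2 is not given, the r of Lyz1 may not be independent of the 10. All these values describe libraries that fall into 2 age clusters and share the age and sex split. Ctsz, for example, went from 32.2 ± 1.65 FPKM to 50.1 ± 5.43 in hippocampal CON mice and from 32.1 ± 5.38 to 52.6 ± 2.56 in hypothalamic ones. Within groups the 10 genes varied less together: over the 45 pairs of genes, the correlation of deviations from the group means had a median of 0.30 in the hippocampus (range -0.19 to 0.92) and 0.22 in the hypothalamus (-0.16 to 0.74). Trem2 with Tyrobp gave the highest value in the hippocampus, at 0.92, where both peaked in 8-week CRD replicate 2.

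Markers of other cells were measured beside these results. Red cell genes moved with age: their summed level ran from 59.1 to 359.6 FPKM at 8 weeks and from 197.0 to 475.9 at 18 months in the hippocampus, and from 94.0 to 332.9 and from 202.6 to 779.4 in the hypothalamus, with 5 of 5 called higher in hypothalamic and 1 of 5 in hippocampal CON mice. The 8 monocyte markers summed to 6.74 to 15.2 FPKM in 8-week and 6.38 to 17.2 in 18-month hippocampal libraries, and to 7.16 to 13.4 and 6.46 to 15.4 in hypothalamic ones. Markers of border macrophages summed to 4.24 to 15.1 and 4.93 to 22.9 FPKM in the hippocampus and to 3.89 to 10.1 and 3.37 to 10.3 in the hypothalamus. Neutrophil markers summed to 3.33 to 22.4 and 2.29 to 16.2 in the hippocampus and to 4.37 to 13.7 and 2.49 to 25.3 in the hypothalamus. For each of these 3 lists the ages overlapped, no marker was at 0 in all libraries of a group, and no gene was called with age in CON. In hypothalamic CRD mice 1 monocyte gene was called higher (Plac8, 1.03) and 1 lower (Vcan, -0.45). Of 6 astrocyte genes 1 was called higher in hippocampal CON mice (Gfap, 0.98) and 3 in hypothalamic ones. The 6 endothelial genes summed to 41.6 to 55.61 FPKM at 8 weeks and 33.91 to 40.0 at 18 months in hypothalamic CON mice, without overlap, with 1 called lower (Slco1c1, -0.54), while in the hippocampus their ages overlapped. Beside these counts, 0.468% of all genes in hippocampal CON, 9.95% in hypothalamic CON and 12.3% in hypothalamic CRD were called with age. The part of these markers in the results was not tested.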

How the data were processed

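RNA had been extracted with Trizol and selected with oligo(dT) beads, per the labels' protocols. The authors deposited 1 table of FPKM values for 20673 genes in 78 libraries, of which the 38 brain libraries were used. HISAT2, Bowtie2, RSEM, DESeq2 and GRCm38 are named in the submitters' processing notes without versions or roles, and read depth and library counts are not given in the sources used here. Groups came from the labels. With limma 3.58.1 in R 4.3.3, log2(FPKM + 1) was fitted with a variance trend, once per region over its 4 groups and once over all 8 groups for the regional comparisons, leaving out genes with a mean under 0.5 FPKM. P-values were adjusted by Benjamini and Hochberg's method over all genes of a fit. The scripts were tested on simulated data. No columns were left unmapped, and no pair of brain libraries was identical. All 10 members are named. Of the other lists, up to 4 called genes by smallest p were named, and 5 genes for likeness. The members and lists were chosen with earlier results of these data known. Alternatives were another pseudocount (0.1), no filter, median-of-ratios scaling, no trend, only the compared groups, a replicate block and each library left out.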

Additional observations from a re-analysis of the deposited data

Results flagged for a closer look

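Of 80 groups of 4 or 5 libraries examined for the 10 genes, 4 held a library far from the others, about the 1 in 20 that chance gives. Trem2 stood at 37.38 FPKM in replicate 2 of hippocampal 8-week CRD mice, where the other 4 lay between 15.27 and 17.29, and Tyrobp was highest in the same library. Cd68 stood at 23.14 FPKM in replicate 1 of hippocampal 18-month CON mice, beside 19.24 to 19.58 in the other 3. Lyz2 stood at 19.83 FPKM in replicate 1 of hypothalamic 8-week CON mice, beside 6.36 to 8.81 in the other 4. Clec7a stood at 0.32 FPKM in replicate 1 of hypothalamic 8-week CRD mice, beside 0.19 to 0.21 in the other 4. What set these libraries apart was not tested.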

How the results depend on the processing

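Over 3643 values of single members under the alternatives, 3588 kept their side of the threshold, 28 lost a call and 27 gained one. Of the 1012 values whose main result was called, 0 changed sign, and of the 2631 not called, 90 did. The counts of members that follow describe stability only, as the share of all genes called moved with the setting too. With age in hippocampal CON it was 0.468% in the main fit and 6.97% without the 4 hippocampal libraries low in Ttr. The regional comparison was the least stable, and its main fit called 47.6% of all genes at 18 months and 50.5% at 8 weeks. At 18 months 1 member was called instead of 3 with a pseudocount of 0.1 and with no filter, and 5 with only the compared groups. At 8 weeks 5 were called instead of 3 without the 4 hippocampal libraries low in Ttr. With each library left out in turn, members called ran from 5 to 8 with age in hippocampal CON, from 5 to 8 in hippocampal CRD (8 without 8-week CRD replicate 2), from 9 to 9 in the hypothalamus under either schedule, from 0 to 0 for CRD against CON, for the difference of its effects and for the regional difference in age effect, from 1 to 3 for the regions at 18 months and from 2 to 5 at 8 weeks (5 without hippocampal 8-week CRD replicate 2). With only the compared groups, Cd68 in hippocampal CRD mice had an age difference with an adjusted p = 0.1075 by limma. With the replicate number as a block, members called with age stayed at 6, 5, 9 and 9. In the regional fit the block instead joined same-numbered libraries of both regions within an age and schedule, with a common correlation of 0.1808. There 1 call was added, Axl between the regions at 8 weeks (0.25, adjusted p = 0.03355 by limma). In the main fits numbers were not taken as pairs, because the labels do not state pairing. Within a region 19 of 54 same-numbered pairs deviated together with a correlation over 0.1 (median 0.0483). Between regions 14 of 19 did (median 0.1811), with 12 of the 19 libraries matching their own number best. Whether same-numbered libraries of the regions share an animal was not tested. A pseudocount of 0.1 raised the log2 change of weak genes, Clec7a in hypothalamic CON from 1.89 to 3.12 and Cst7 from 1.72 to 3.24. The difference of the CRD effects uses all 4 groups and so had no fit on fewer. With no read counts, the counting error of the genes under 1 FPKM is unknown. The causes of these shifts were not tested.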

Other observations

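Blood mononuclear cells of 18-month CON mice, 2 libraries, gave levels of another order in the same deposited table. Lyz2 stood at 6250.26 and 7003.35 FPKM, Tyrobp at 1611.15 and 1111.27, Cd68 at 153.65 and 335.84, Cd14 at 135.42 and 159.01, and Clec7a at 123.03 and 106.79. Itgax stood at 46.59 and 58.36 FPKM. Trem2 (14.82 and 17.34), Axl (1.42 and 4.94) and Gpnmb (0.37 and 0.46) did not exceed their brain levels in 18-month hippocampal CON libraries. No comparison of the tissues was tested.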
